A study of Mus musculus with 6 samples.

Results

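Glutathione and the transcription factor NRF2 guard cells against oxidants, and 10 genes of this system were followed here in EpiLCs, the epiblast-like cells that mouse embryonic stem cells (mESCs) form as they leave the naïve state. The members were listed by name, as regulators and enzymes of this system, with no rule on their measured values, although earlier results of these data were known: Nfe2l2 (which encodes NRF2), Keap1, Gclc, Gclm, Gss, Gsr, Gpx4, Txnrd1, Nqo1 and Hmox1. Each was found once among the 55416 genes of the count table, through its Ensembl identifier and the GENCODE gene names. RNA-seq was performed on 3 libraries of WT EpiLCs and 3 libraries of KO EpiLCs, all collected after 48 h of differentiation. The WT cells were the 46C line, which carries a GFP reporter of Sox1, a neural gene. The KO cells were the same line carrying a homozygous nucleotide insertion in Oct6 (official symbol Pou3f1), and they came from a single clone, so that the effect of the genotype and that of the clone cannot be told apart. Both received N2B27 medium with KSR (a serum replacement), bFGF and Activin A on fibronectin, and the base medium of both held β-mercaptoethanol, a thiol reductant.

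Glutathione is a tripeptide of glutamate, cysteine and glycine. Its synthesis is limited by cysteine and by glutamate-cysteine ligase, made of the catalytic subunit GCLC and the modifier subunit GCLM, and is completed by glutathione synthetase, encoded by Gss. Glutathione reductase (Gsr) returns oxidised glutathione to its reduced form, and GPX4 spends it to reduce lipid hydroperoxides in membranes, which protects cells from ferroptosis. In unstressed cells KEAP1 hands NRF2 to a CUL3 ubiquitin ligase for degradation. When NRF2 escapes this control, it pairs with small MAF proteins at antioxidant response elements (AREs) of genes such as Gclc, Gclm, Txnrd1, Nqo1 and Hmox1. Much of the control of NRF2 therefore acts on the protein, which RNA-seq does not measure.

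Library totals ran from 10995505 to 14680930 counts. Oct6 RNA was present in every library, at 142 ± 19.4 CPM in WT and 132 ± 7.59 CPM in KO EpiLCs (SD, n = 3), and since a small insertion leaves the RNA countable, this does not check the labels. CPM are counts scaled to a common normalized library size. The 8 EpiLC and pluripotency markers examined summed to 3523 to 3832 CPM in WT and 3624 to 3806 CPM in KO libraries. Within this sum 4 of the 8 passed the test as higher in KO EpiLCs, beside 11.8% of all genes, and none passed as lower. The log2 fold changes were 0.92 for Otx2, 0.65 for Fgf5, 0.42 for Sox2 and 0.40 for Cripto (edgeR adjusted p = 1.7e-04, 3.81e-04, 0.0283 and 0.0104). The libraries of Sox2 overlapped between groups. The most abundant of the 8, Dnmt3b and Pou5f1, had log2 fold changes of −0.19 each and did not pass (adjusted p = 0.206 and 0.187). Dnmt3a (0.22) and Utf1 (−0.008) did not pass either. Markers of the other lineages were low. The 5 endoderm markers summed to at most 5.15 CPM in WT and 13.5 CPM in KO libraries, the 5 mesoderm markers to at most 6.57 and 12.1 CPM, the 5 trophoblast markers to at most 11.7 and 8.35 CPM, the 4 fibroblast markers to at most 15.2 and 9.64 CPM, and the 3 blood markers to at most 14.4 and 6.81 CPM, with WT replicate 1 highest for the last 2 lists. The 4 neural markers summed to between 31.6 and 39.9 CPM in WT and between 22.5 and 24.2 CPM in KO libraries. The mesoderm sums were at least 9.03 CPM in KO and the trophoblast sums at least 10.9 CPM in WT libraries, without overlap between groups. Gata6 and Pdgfra of endoderm (log2 fold changes 1.35 and 0.94) and Eomes of mesoderm (0.87) were higher in KO EpiLCs. Sox1 (−1.78) and Tubb3 (−0.61) of the neural list, Krt7 (−1.01) of trophoblast and Thy1 (−1.22) of fibroblast were lower. Each had an edgeR adjusted p below 0.1, as had 24.3% of all genes. The part of these lineages in the results was not tested. In bulk RNA, fewer cells of a type and less RNA per cell cannot be told apart.

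Of the 10 genes, 3 changed in KO EpiLCs. Gpx4 and Gss were higher and Hmox1 was lower, while Nfe2l2, Keap1, Gclc, Gclm, Gsr, Txnrd1 and Nqo1 did not pass the test. Changes are given as log2FC, the fitted log2 fold change of KO over WT with its standard error (SE), and each adjusted p (Benjamini-Hochberg) comes from the quasi-likelihood test of edgeR over 15746 genes, with a call below 0.1. It called 24.3% of all genes, 11.8% higher and 12.5% lower in KO EpiLCs. The 3 of 10 calls (30%) are thus near the share among all genes. None of the 10 reached a log2FC of 1, which 6.21% of the tested genes reached together with the call. Their median log2FC was 0.029, against 0.001 for all genes tested. The 3 WT and 3 KO libraries did not overlap for 5 of the 10 genes, compared with 33.7% of all genes. No member lies on chromosome 6 or 16, whose genes had shifted medians in the KO clone.

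**Figure D1:**
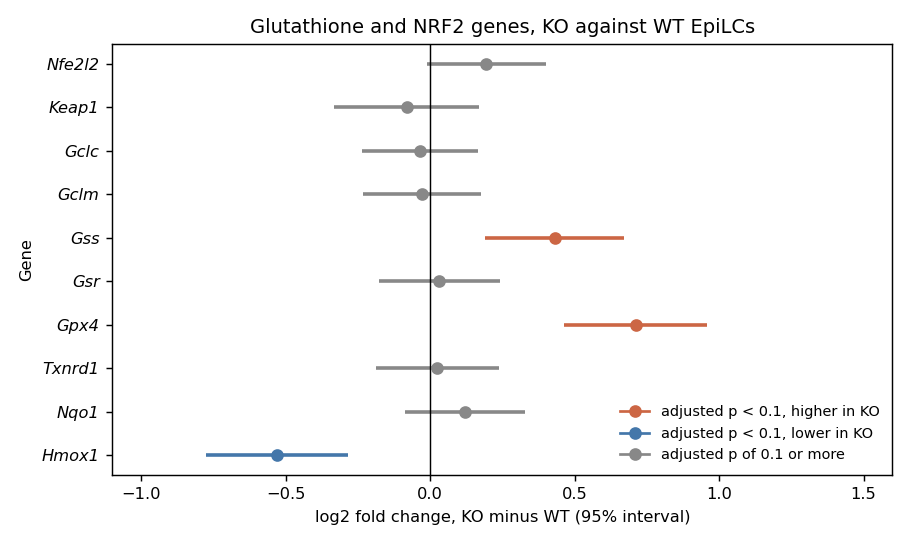
The log2FC, KO minus WT, of the 10 glutathione and NRF2 genes (points) with its 95% interval (lines), from 3 libraries per group. Gss (0.43) and Gpx4 (0.71) lie to the right of 0, Hmox1 (−0.53) to the left, and the intervals of the other 7 genes include 0.

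Nfe2l2 (ENSMUSG00000015839.7, chromosome 2, 75504739 to 75534985 in build GRCm39, as for all genes) had 60.2, 63.2 and 62.3 CPM across WT replicates 1 to 3, against 68.5, 72.7 and 71.2 CPM across the KO replicates. Each KO library thus exceeded each WT library, by a small margin. The means of 61.9 ± 1.58 and 70.8 ± 2.10 CPM (SD, n = 3) gave log2FC 0.19 (SE 0.098, adjusted p = 0.195), which did not pass. Its 95% interval ran from −0.011 to 0.40. Keap1, the adaptor that presents NRF2 for degradation (ENSMUSG00000003308.16, chromosome 9, 21141026 to 21150679), had 29.6, 29.7 and 32.1 CPM across the WT replicates, against 27.0, 28.0 and 31.4 CPM across the KO replicates. The groups overlapped, and the log2FC was −0.08 (SE 0.12, adjusted p = 0.711, 95% interval −0.33 to 0.17).

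The ratio of Nfe2l2 to Keap1 within a library does not depend on the scaling between libraries. Computed on counts per kb of exon, it was 2.12, 2.22 and 2.02 in WT replicates 1 to 3 and 2.65, 2.70 and 2.37 in KO replicates 1 to 3. All KO ratios were above all WT ratios, with means of 2.12 ± 0.101 and 2.57 ± 0.181 (SD, n = 3). The exact two-sided permutation test gave p = 0.1, the smallest value that 3 libraries against 3 can give, and a log2 difference of 0.28. Among all genes tested, those whose profile over the 6 libraries was most like that of Nfe2l2 were Cdk2, Slc1a3 and Jkamp, with root mean square differences of 0.014, 0.017 and 0.024 in centred log2 CPM (median over all genes 0.246). Those most like Keap1 were Notch1, Clstn3 and Rnf216, with differences of 0.030, 0.032 and 0.037 (median over all genes 0.239). As the smallest differences among all genes tested, these values lie below the median by selection, and shared control was not tested.

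Stretches around the start sites were read from GRCm39 for the letters of the ARE core, TGACNNNGC, on both strands between 500 bases upstream and 100 bases downstream of the canonical start. The core was present in 3 of the 10 genes and in 21.2% of the 21627 protein-coding genes examined in the same way. The matches are shown because they mark which members carry an ARE-like sequence this close to their start. Each is printed with 10 bases on either side, 5′ to 3′ on the strand that carries the core, with the core in capitals and the position of its middle relative to the start.
Nfe2l2, chr2:75535229-75535257, minus strand, centred at −258: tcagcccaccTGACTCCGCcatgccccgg
Gclm, chr3:122039062-122039090, minus strand, centred at −50: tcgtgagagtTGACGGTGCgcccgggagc
Txnrd1, chr10:82694632-82694660, minus strand, centred at −367: gcactggctgTGACCCTGCcaaatagttg
Txnrd1, chr10:82694938-82694966, minus strand, centred at −61: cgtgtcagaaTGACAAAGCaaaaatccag
None of these 3 genes passed the test. The windows of Gpx4, Gss and Hmox1 did not hold these letters, nor did those of Keap1, Gclc, Gsr and Nqo1. Sequence farther from the start was not examined, and a link between matches and calls was not tested. The octamer ATGCAAAT, the classical motif of POU factors such as OCT6, was present in 3.06% of all windows and in that of Keap1 alone among the 10 genes. It is printed with the octamer in capitals.
Keap1, chr9:21150886-21150913, plus strand, centred at −221: gttagctaccATGCAAATgggggaattg
A match is a description of the sequence and not of binding, which was not measured.

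Of the genes for glutathione synthesis, those of the rate-limiting ligase did not pass and that of the synthetase was higher in KO EpiLCs. Gclc (ENSMUSG00000032350.10, chromosome 9, 77661797 to 77701770) had 106, 109 and 108 CPM across the WT replicates, against 102, 100.1 and 114 CPM across the KO replicates. Its log2FC was −0.034 (SE 0.096, adjusted p = 0.855), with a 95% interval from −0.24 to 0.17. Gclm (ENSMUSG00000028124.16, chromosome 3, 122039126 to 122065061) had 116, 109.9 and 109 CPM in WT and 116, 99.5 and 112 CPM in KO replicates. The groups overlapped for both subunits. The log2FC of Gclm was −0.027 (SE 0.098, adjusted p = 0.895), with a 95% interval from −0.23 to 0.18.

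The proportion of the catalytic to the modifier subunit was also compared within libraries. The ratio of Gclc to Gclm per kb of exon was 1.16, 1.26 and 1.27 in WT and 1.11, 1.28 and 1.29 in KO replicates 1 to 3. The log2 difference was −0.0077 (exact two-sided permutation p = 1), and the KO ratios lay on either side of the WT ratios.

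Gss (ENSMUSG00000027610.18, chromosome 2, 155405096 to 155455505), whose enzyme adds glycine in the last step, had 28.7, 28.5 and 28.1 CPM across WT replicates 1 to 3, against 39.9, 35.4 and 39.7 CPM across the KO replicates. Each KO library was above the narrow range of the WT libraries. The mean rose from 28.4 ± 0.297 to 38.4 ± 2.55 CPM (SD, n = 3), or 1.35-fold, log2FC 0.43 (SE 0.11, adjusted p = 0.0114). Exons of Gss share 1511 bases with those of Acss2 on the opposite strand, and although the libraries were made with a stranded kit, whether the counting used the strand is not given in the sources used here. Acss2, the cytosolic acetyl-CoA synthetase, had 25.8 ± 2.34 CPM in WT and 23.6 ± 1.89 CPM in KO EpiLCs (SD, n = 3), log2FC −0.13 (adjusted p = 0.566). Myh7b, which shares 86 bases, had log2FC −0.40 (adjusted p = 0.2). The part of the overlapping genes in the Gss counts was not tested.

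Gpx4 showed the largest change of the 10 genes. It (ENSMUSG00000075706.12, chromosome 10, 79883000 to 79892273) had 264, 272 and 200.2 CPM across WT replicates 1 to 3, against 389, 366 and 451 CPM across the KO replicates. The lowest KO library stood well above the highest WT library. The mean rose from 246 ± 39.5 to 402 ± 43.9 CPM (SD, n = 3), or 1.64-fold, log2FC 0.71 (SE 0.12, adjusted p = 2.64e-04). WT replicate 3 and KO replicate 3 lay farthest apart, and the omission of any single library kept the log2FC between 0.58 and 0.79. Gpx4 has a transcribed processed pseudogene on the same chromosome, Gpx4-ps2, with which reads could be exchanged. Gpx4-ps2 had 39.5 ± 8.70 CPM in WT and 65.6 ± 7.76 CPM in KO EpiLCs (SD, n = 3), log2FC 0.74 (adjusted p = 9.58e-04), and its counts were between 14.9% and 17.2% of those of Gpx4 in every library.

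Gsr did not pass. With 318, 355 and 312 CPM across the WT replicates, against 307, 366 and 335 CPM across the KO replicates, the reductase (ENSMUSG00000031584.17, chromosome 8, 34142551 to 34188192) had overlapping groups. Its log2FC was 0.032 (SE 0.099, adjusted p = 0.871), with a 95% interval from −0.18 to 0.24. Txnrd1, thioredoxin reductase of the cytosol, runs the thiol system parallel to glutathione. It (ENSMUSG00000020250.12, chromosome 10, 82669785 to 82733546) had 689, 791 and 746 CPM in WT and 661, 792 and 810 CPM in KO replicates, log2FC 0.025 (SE 0.10, adjusted p = 0.908, 95% interval −0.19 to 0.24). KO replicate 1 gave the lowest and KO replicate 3 the highest of the 6 values.

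Gpx4 and Txnrd1 are selenoprotein genes, in which an in-frame TGA codon is read as selenocysteine at the active site. The codons annotated by GENCODE are shown because both members share this feature, of which Gpx4 was called and Txnrd1 was not. They are printed from GRCm39 on the plus strand, with the selenocysteine codon in capitals and 12 bases on either side.
Gpx4, chr10:79890559-79890585: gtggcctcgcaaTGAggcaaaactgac
Txnrd1, chr10:82731859-82731885: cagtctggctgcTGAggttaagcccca
Selenocysteine codons need dedicated factors to be read. Of the 10 genes listed for selenoprotein synthesis, all were tested, 2 were lower and 8 did not pass (20% called, beside 24.3% of all genes). Eefsec, the elongation factor that delivers selenocysteine, fell from 35.6 ± 1.70 to 26.4 ± 1.88 CPM (SD, n = 3), log2FC −0.43 (adjusted p = 0.0135). It lies on chromosome 6, whose 773 tested genes had a median log2FC of −0.40. Sars1, the seryl-tRNA synthetase that charges the precursor of the selenocysteine tRNA as well as ordinary serine tRNAs, fell from 175 ± 26.6 to 121 ± 2.22 CPM, log2FC −0.53 (adjusted p = 0.00177).

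The remaining members are classical NRF2 targets. Nqo1, a quinone reductase (ENSMUSG00000003849.9, chromosome 8, 108113835 to 108129934), had 256, 252 and 211 CPM across the WT replicates, against 257, 264 and 261 CPM across the KO replicates. The groups did not overlap, but KO replicate 1 was barely above WT replicate 1, and WT replicate 3 stood below the other 5 libraries. The log2FC of 0.12 (SE 0.099, adjusted p = 0.452) did not pass, with a 95% interval from −0.086 to 0.33.

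Hmox1 (ENSMUSG00000005413.9, chromosome 8, 75820241 to 75827217) encodes haem oxygenase 1, which degrades haem and releases iron. It had 130.01, 92.8 and 99.9 CPM across WT replicates 1 to 3, against 75.8, 71.6 and 76.2 CPM across the KO replicates. Every KO library was below every WT library, and the spread was wider in WT EpiLCs, where replicate 1 was highest. The blood markers summed to 14.4 CPM in that library against 6.11 and 6.90 CPM in WT replicates 2 and 3. Most of this sum was the macrophage gene Cd68, with 13.4 CPM against 5.84 and 6.16 CPM. Of the other blood markers, Ptprc had 0.970 against 0.274 and 0.676 CPM, and Lyz2 had 0 against 0 and 0.0676 CPM. The fibroblast markers summed to 15.2 against 8.12 and 10.1 CPM. Among them, Col1a2 and Acta2 were highest in WT replicate 1. Col1a1 had 0 against 0.548 and 0.609 CPM, and Thy1 had 2.39 against 2.28 and 2.57 CPM. The part of other cell types in the Hmox1 counts was not tested. The mean of Hmox1 fell from 108 ± 19.8 to 74.5 ± 2.56 CPM (SD, n = 3), log2FC −0.53 (SE 0.12, adjusted p = 0.0031). The omission of any single library gave a log2FC between −0.63 and −0.37, the latter without WT replicate 1 (adjusted p = 0.0222). Nqo1 and Hmox1 lie on the same chromosome.

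Levels were compared between genes per kb of exon. In WT EpiLCs the order was Gpx4 (142 ± 22.9 CPM per kb, SD, n = 3), Txnrd1 (105 ± 7.21), Nqo1 (87.2 ± 9.03), Hmox1 (61.2 ± 11.2), Gsr (47.4 ± 3.35), Gclc (17.2 ± 0.276), Gclm (14.0 ± 0.462), Nfe2l2 (11.3 ± 0.290), Keap1 (5.35 ± 0.256) and Gss (4.12 ± 0.043). No neighbours in this order overlapped among the WT libraries. In KO EpiLCs, Hmox1 (42.4 ± 1.46 CPM per kb) stood after Gsr (48.4 ± 4.29) and Gss (5.55 ± 0.370) before Keap1 (5.06 ± 0.403). Libraries overlapped there between Gss and Keap1, between Gclm and Nfe2l2 and between Txnrd1 and Nqo1, so that these neighbours are not separated in KO EpiLCs. Exon lengths take the union of all annotated transcripts, which lowers the computed level of genes with long rarely used exons.

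**Figure D2:**
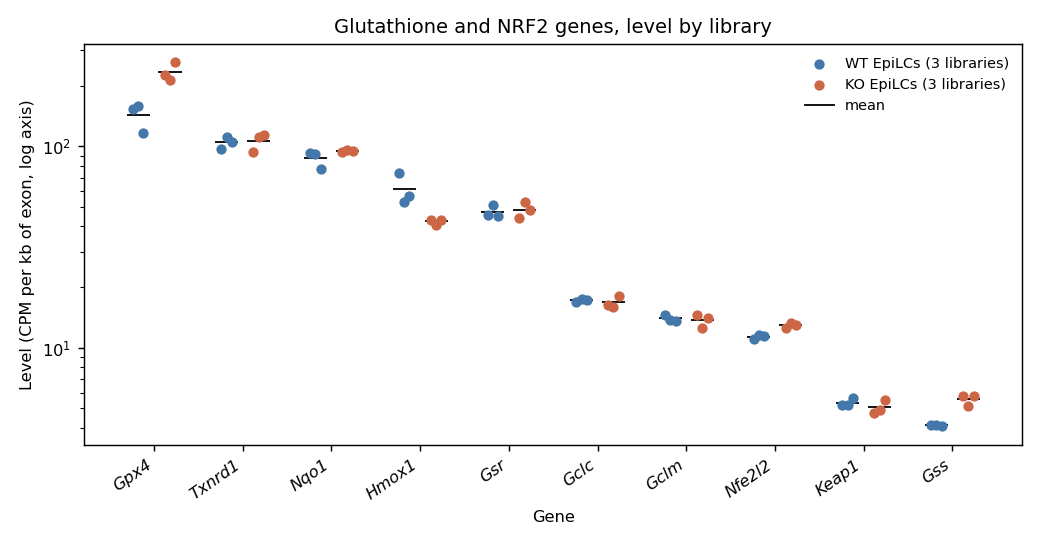
Level of the 10 genes in each library (points), in CPM per kb of exon on a log axis, with the mean of each group (lines), ordered by the WT mean. Gpx4 is highest in both groups, with WT and KO means of 142 and 233, and the WT and KO points do not overlap for 5 genes (Gpx4, Nqo1, Hmox1, Nfe2l2 and Gss).

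Around the members, 126 further genes of the 2 systems were listed in 6 groups, and 116 had enough counts to be tested. In KO EpiLCs 16 were higher and 24 lower, 34.5% of those tested, beside 24.3% of all genes, and 76 did not pass. A log2FC of 1 in either direction was reached by 12 of the 40. The median log2FC of the 116 was −0.041, against 0.001 for all genes. In the KO clone the 471 tested genes of chromosome 16 had a median log2FC of 0.55 and those of chromosome 6 one of −0.40, and the part of these shifts in the counts is given by leaving both chromosomes out. Without the 14 genes on them, 9 were higher and 21 lower among 102 (29.4%), beside 21.6% of all 14502 genes tested off these chromosomes (10.5% higher and 11.1% lower).

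**Figure D3:**
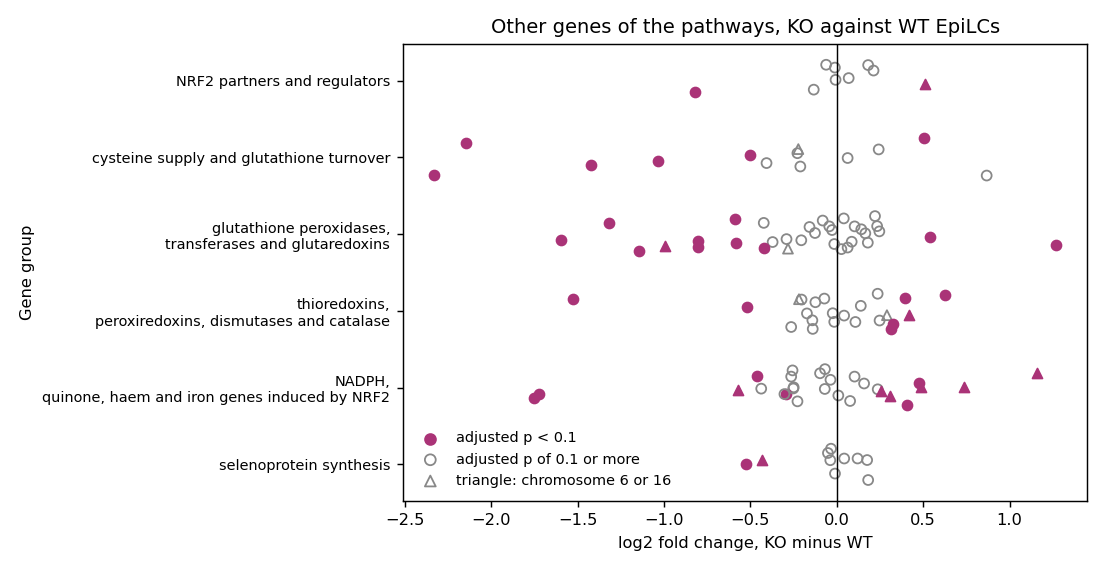
The log2FC, KO minus WT, of the 116 other genes tested (1 symbol per gene) in 6 groups, filled where the adjusted p was below 0.1 and drawn as triangles on chromosomes 6 and 16. The lowest values, below −2, belong to Slc7a11 and Ggt7 in the group of cysteine supply and glutathione turnover.

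Of the 13 tested genes that supply cysteine or break glutathione down, 5 were lower in KO EpiLCs, 1 was higher and 7 did not pass. The share called was 46.2%, beside 24.3% of all genes, and the median log2FC was −0.23. Slc7a11, the cystine transporter subunit of system xc-, had 12.5, 10.9 and 15.6 CPM across the WT replicates, against 3.89, 2.47 and 2.48 CPM across the KO replicates. The fall to 0.227 of the WT mean, log2FC −2.15 (SE 0.23, adjusted p = 3.36e-06), was far larger than the spread between replicates. Its heavy-chain partner Slc3a2 had 183 ± 11.4 and 156 ± 4.23 CPM (SD, n = 3) and just missed the threshold (log2FC −0.23, adjusted p = 0.103). Cth, which makes cysteine by transsulfuration and falls outside the rule for named genes, fell from 112 ± 10.3 to 79.1 ± 3.96 CPM, log2FC −0.50 (adjusted p = 0.00147). Cbs, the preceding enzyme of the same route, had 14.0 ± 2.07 and 14.6 ± 1.30 CPM, with overlapping libraries and an adjusted p of 0.842.

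On the side of breakdown, Chac1, which cleaves glutathione in the cytosol, had 5.82, 9.31 and 6.22 CPM across the WT replicates, against 3.65, 2.47 and 1.81 CPM across the KO replicates. Its log2FC was −1.42 (SE 0.28, adjusted p = 0.00114). The paralog Chac2 did not pass, with 6.57 ± 1.20 and 7.74 ± 0.422 CPM (SD, n = 3). Ggt1, the γ-glutamyltransferase that cleaves glutathione outside the cell, fell from 9.87 ± 0.256 to 4.81 ± 0.968 CPM, log2FC −1.03 (adjusted p = 0.0011). Ggt7, a member of the same family, fell from 4.36 ± 1.09 to 0.867 ± 0.470 CPM, log2FC −2.33 (adjusted p = 1.93e-04). This rests on KO counts of 17, 10 and 6, and a filter of at least 10 counts in every library removed Ggt7. Ggt5, Ggct and Oplah did not pass (log2FC −0.21, −0.22 and −0.41). Cndp2, a cytosolic dipeptidase that can release cysteine from cysteinylglycine, was the gene that was higher. It rose from 52.7 ± 5.73 to 74.7 ± 5.48 CPM, log2FC 0.51 (adjusted p = 0.00281), and also falls outside the rule for named genes.

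**Figure D4:**
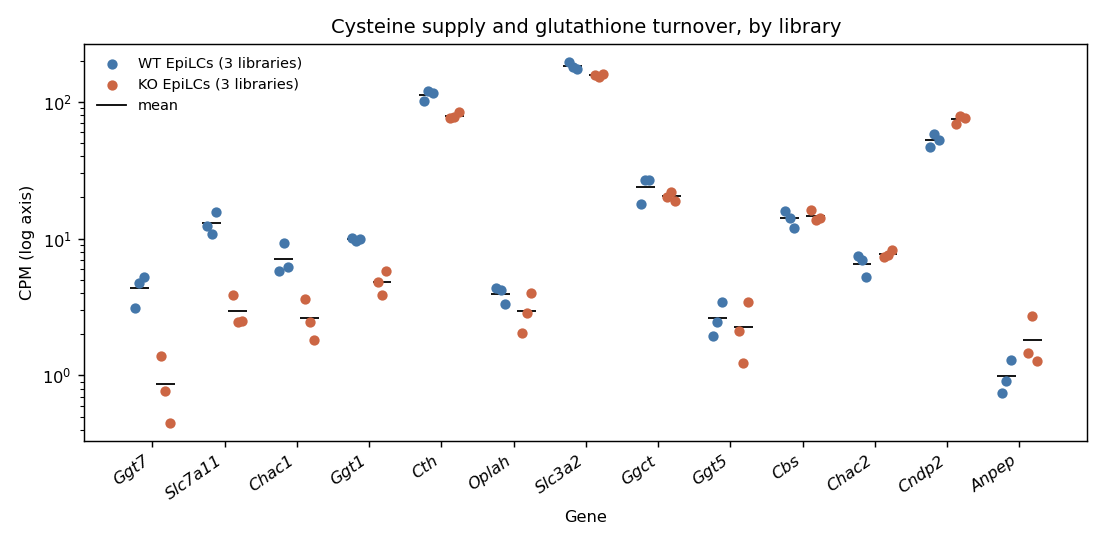
CPM (log axis) of the 13 tested genes of cysteine supply and glutathione turnover in each of the 3 WT and 3 KO libraries (points), with group means (lines), ordered from the most negative to the most positive log2FC. The groups are widest apart for Ggt7 and Slc7a11 at the left, with KO means of 0.867 and 2.95 CPM against 4.36 and 12.98 CPM in WT.

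Among the partners and regulators of NRF2, 1 of 9 was higher and 1 lower (22.2% called, beside 24.3% of all genes). Bach1, which encodes a repressor that binds AREs, had 82.5, 73.1 and 83.1 CPM across the WT replicates, against 109, 103 and 128 CPM across the KO replicates, log2FC 0.51 (SE 0.11, adjusted p = 0.00191). It lies on chromosome 16, and its change is near the median of that chromosome (0.55). Maff, a small MAF partner, fell from 6.05 ± 1.16 to 3.40 ± 1.06 CPM (SD, n = 3), log2FC −0.82 (adjusted p = 0.0337). The more abundant small MAF Mafg had 74.4 ± 2.95 and 71.3 ± 1.88 CPM and did not pass. The call of Maff was lost without WT replicate 2 or KO replicate 1, with log2FC values of −0.71 and −0.59. Cul3, Rbx1 and Sqstm1, which act on the stability of NRF2 through KEAP1, did not pass either, with adjusted p-values of 0.239, 0.712 and 0.97.

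Of 33 tested peroxidases, transferases and glutaredoxins, 2 were higher and 9 lower (33.3% called, beside 24.3% of all genes), with a median of −0.082. The 4 named by rule were transferases and all were lower. The higher genes were Gpx7, a peroxidase of the endoplasmic reticulum (log2FC 0.54, adjusted p = 0.00629), and the transferase Gsta3, which was below the abundance limit of the rule and rose from 0.892 ± 0.296 to 2.21 ± 0.284 CPM (SD, n = 3), log2FC 1.27 (adjusted p = 0.0227). Both fall outside the rule and were chosen after their values were seen. Gstm5 fell from 20.1 ± 2.10 to 9.10 ± 1.13 CPM (SD, n = 3), log2FC −1.15 (adjusted p = 5.35e-05). Gstt3 fell from 4.71 ± 0.465 to 1.56 ± 0.479 CPM and Gstt1 from 4.11 ± 1.82 to 1.65 ± 0.569 CPM, for which the log2FC was −1.59 (adjusted p = 7.46e-04) and −1.32 (adjusted p = 0.013), respectively. Gstk1, on chromosome 6, fell from 3.63 ± 0.224 to 1.82 ± 0.595 CPM (log2FC −0.99, adjusted p = 0.0278). The call of Gstt1 was lost without WT replicate 1 (−0.91) and that of Gstk1 without KO replicate 3 (−0.77). The transferases form clusters of close paralogs, among which reads could have been divided. Gpx1, the abundant cytosolic peroxidase related to Gpx4, had 347 ± 23.8 and 373 ± 37.5 CPM and did not pass (log2FC 0.10, adjusted p = 0.545).

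In the group of thioredoxins, peroxiredoxins, dismutases and catalase, 5 of 23 genes were higher and 2 lower (30.4% called, beside 24.3% of all genes). No thioredoxin, peroxiredoxin or catalase gene was among them. The higher genes were Msrb2, Sod1, Srxn1, Sesn1 and Sesn2, the last 3 outside the rule for named genes. The lower genes were Msrb3 and Txnip. Msrb2, a methionine sulfoxide reductase of mitochondria, rose from 13.6 ± 0.683 to 21.0 ± 1.27 CPM (SD, n = 3), log2FC 0.63 (adjusted p = 0.00355). Msrb3 fell from 2.76 ± 0.565 to 0.952 ± 0.264 CPM (log2FC −1.53, adjusted p = 0.00548), on KO counts of 8, 14 and 15. A filter of at least 10 counts in every library removed Msrb3. Txnip, which binds and inhibits thioredoxin, fell from 328 ± 29.5 to 229 ± 39.2 CPM (log2FC −0.52, adjusted p = 0.00336). Sod1, the cytosolic superoxide dismutase, rose from 335 ± 15.1 to 447 ± 21.4 CPM, log2FC 0.42 (adjusted p = 0.00342), and lies on chromosome 16. Txn1 and Prdx1 did not pass, with log2FC values of −0.12 and −0.072.

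In the group of NADPH, quinone, haem and iron genes, 7 of 28 were higher and 5 lower (42.9% called, beside 24.3% of all genes). Without chromosomes 6 and 16 the counts were 2 and 4 of 22 (27.3%, beside 21.6% of all genes). The 2 higher genes were Nqo2 (log2FC 0.41) and Slc40a1 (0.48). The 4 lower genes were Ftl1 (−0.29), Ephx1 (−0.46), Abcc3 (−1.72) and Aldh3a1 (−1.75), of which Abcc3 and Aldh3a1 were below the abundance limit of the rule. All of these fall outside the rule for named genes, and the genes named by it lie on chromosomes 6 and 16. The carbonyl reductases Cbr3 and Cbr1 are neighbours on chromosome 16. Cbr3 had 66.0, 63.9 and 58.0 CPM across the WT replicates, against 140, 133 and 146 CPM across the KO replicates, log2FC 1.16 (SE 0.099, adjusted p = 2.7e-07), above the median of its chromosome (0.55). Cbr1 rose from 19.0 ± 2.47 to 31.7 ± 1.02 CPM (log2FC 0.73, adjusted p = 5.1e-04). On chromosome 6, the efflux pump gene Abcg2 fell from 224 ± 12.4 to 151 ± 9.49 CPM (log2FC −0.57, adjusted p = 3.05e-04), whereas Akr1b8, an aldo-keto reductase, rose from 13.1 ± 1.43 to 18.3 ± 1.82 CPM (log2FC 0.49, adjusted p = 0.0308). The call of Akr1b8 was lost without WT replicate 3 (0.39) or KO replicate 1 (0.42). The NADPH-producing enzymes G6pdx and Pgd had 78.4 ± 10.7 and 116 ± 11.9 CPM in WT and 65.2 ± 2.73 and 99.4 ± 6.70 CPM in KO EpiLCs (SD, n = 3), and did not pass (adjusted p = 0.112 and 0.144).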

How the data were processed

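RNA-seq counts of 6 libraries, 3 of WT EpiLCs and 3 of KO EpiLCs, were analysed. The authors used FastQC for quality, Fastp for trimming and STAR (two-pass) for alignment to GRCm39, and deposited raw counts per gene, without normalization. The libraries were stranded total RNA libraries. The annotation release and the treatment of strand and multiple matches in the counting are not given in the sources used here. Identifiers were matched to GENCODE release M39 (54749 found, 667 not found, with 0.0602% of the counts).

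Genes passing edgeR's filterByExpr (minimum count 10) were scaled by TMM and tested in R 4.3.3 with edgeR 4.0.16 (quasi-likelihood test, genotype only, adjusted p below 0.1). Standard errors were derived from the F statistic. Alternatives were DESeq2 1.42.0, RLE factors, library totals, other filters, a replicate block, a threshold of 0.05 and the omission of each library. The omission of chromosomes 6 and 16 was added after seeing the data. The fitting step was tested on simulated data. Members and lists were chosen with earlier results of these data known. Named genes of a list were up to 4 with the largest changes among those called, averaging 1 or more in log2 CPM, with no overlap between groups.

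The series describes its replicates as paired. Over 13078 genes, deviations from the group means correlated at 0.257, 0.298 and 0.122 between libraries of the same number and from −0.233 to −0.0379 otherwise. Since the deviations of a gene cancel within a group, positive values for the same number force negative ones among the others. The negative values are thus not separate support for pairing. Depth ran from 10995505 to 14680930 counts, the common dispersion was 0.0137, and each standard error states the precision reached. Libraries of a group differed beyond sampling noise (chi-square per degree of freedom 6.87 to 11.7). Tdgf1 was matched under its current symbol Cripto.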

Additional observations from a re-analysis of the deposited data

How the results depend on the processing

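Gpx4, Gss and Hmox1 were the members called under each of the 13 refits (other scaling, filters and tool, replicate blocks, each library left out) and at an adjusted p below 0.05. With the replicate number as a block, edgeR called 50 of the 116 pathway genes and 4764 of all genes, DESeq2 42 and 3164, and no call of a member or of a named gene changed. With each library left out in turn, between 34 and 41 pathway genes were called (40 with all libraries) and between 3058 and 3790 of all genes (3833), and the signs of members near 0 were not stable. The log2 fold change ran from −0.092 to 0 for Gclc, from −0.076 to 0.037 for Gclm, from −0.034 to 0.092 for Gsr, from −0.029 to 0.11 for Txnrd1, and the log2 difference of the Gclc to Gclm ratio from −0.048 to 0.061. The cause was not tested. The Nfe2l2 to Keap1 ratio stayed between 0.24 and 0.34 higher on the log2 scale. Permuting within the 3 pairs of libraries gave an exact two-sided p of 0.25, the smallest value that 3 pairs can give. With 3 libraries per group, changes of the size of that of Nfe2l2 (0.19) had standard errors of about 0.1 and are at the limit of what these counts resolve. Omitting chromosomes 6 and 16, chosen after seeing the data, left 30 pathway genes called.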

Other observations

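Since Gpx4 and Txnrd1 are selenoprotein genes, all 24 genes with a selenocysteine codon in the GENCODE annotation were examined, a list chosen after values of Gpx4 and Txnrd1 were seen. Of the 20 tested, 2 were higher and 2 lower in KO EpiLCs (20.0% called, beside 24.3% of all genes), with a median log2 fold change of −0.055. The higher genes were Gpx4 and Selenop, the secreted selenium carrier, which rose from 13.5 ± 1.23 to 20.6 ± 1.22 CPM (SD, n = 3), a log2 fold change of 0.61 (edgeR adjusted p = 0.00499). The lower genes were Selenot, a selenoprotein of the endoplasmic reticulum, which fell from 190 ± 12.2 to 118 ± 10.9 CPM (log2 fold change −0.68, adjusted p = 8.62e-05), and Selenom, which fell from 8.10 ± 0.969 to 5.65 ± 0.843 CPM (log2 fold change −0.52, adjusted p = 0.0844). Gpx4 had the largest positive value among the selenoprotein genes tested. Since its value was seen before the list was chosen, this rank is not separate support for its change.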
